A study of Mus musculus with 24 samples.

Results

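The mitochondrial genome of the mouse carries 37 genes, and all 37 were found in the deposited tables as the genes whose symbol begins with mt-, among 78298 genes in all. They comprise 13 protein genes, 2 ribosomal RNA genes and 22 transfer RNA genes. Their expression was measured by RNA sequencing in oocytes and in granulosa cells, the somatic layer around the oocyte. Both came from ovarian follicles of wild-type mice embedded in the seaweed gel alginate, which grew until day 3 in medium containing serum, insulin, transferrin, selenium and 50 mIU/ml FSH. The 6 groups were oocytes under blebbistatin, dextran and control and granulosa cells under blebbistatin, dextran and control, with 4 libraries in each and 24 in all. Blebbistatin, an inhibitor of the motor protein myosin II, was given at 20 µM. Dextran, a polysaccharide whose addition to the medium raises its osmotic pressure, was given at 10 kPa. Only follicles that had passed 180 µm were taken apart, so the libraries describe the follicles that grew under each treatment. An oocyte library held 1 to 2 oocytes, and a granulosa library a pool of cells. Neither the presence of blebbistatin's solvent in control medium nor the animals behind the replicates are stated in the labels. The p-values below therefore rest on the spread between libraries, which may partly be technical.

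The mitochondrial genome is a small circle transcribed from both strands into long precursors, from which tRNAs are cut out at the borders of the other genes. Its protein genes encode core subunits of 4 complexes of oxidative phosphorylation: complex I, which oxidises NADH, complex III, which passes electrons to cytochrome c, complex IV, which reduces oxygen, and complex V, the ATP synthase. All other subunits of these complexes, the mitochondrial ribosomal proteins and the enzymes that copy, transcribe and process the mitochondrial genome are encoded in the nucleus. The growing oocyte accumulates a very large number of mitochondria, while the granulosa cells around it supply it with metabolites.

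Some transcripts could be counted only with reservations that lie in their sequence, and the stretches that decide this are shown here from the GENCODE vM21 transcripts of GRCm38. The nuclear genome holds pseudogene copies of mitochondrial genes, and the first 120 bases of the complex I gene mt-Nd3 (ENSMUSG00000064360) and of its copy Gm28438 (ENSMUSG00000101939) on chromosome 1 differ at a single base, in capitals.
mt-Nd3: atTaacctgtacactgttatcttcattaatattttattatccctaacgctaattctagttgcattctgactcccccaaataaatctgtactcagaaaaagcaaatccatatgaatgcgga
Gm28438: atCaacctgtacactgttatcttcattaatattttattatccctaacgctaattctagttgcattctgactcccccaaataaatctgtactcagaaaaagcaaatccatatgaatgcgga
Over the 345 bases that could be aligned, T3C was the only substitution, counted from 1 at the 5′ end of mt-Nd3 with the base of mt-Nd3 first. A read from elsewhere in the stretch cannot be assigned to one or the other by its sequence. The complex V gene mt-Atp8 (ENSMUSG00000064356) shares its last 43 bases, in capitals, with the start of mt-Atp6 (ENSMUSG00000064357), because these genes overlap on the same strand.
mt-Atp8: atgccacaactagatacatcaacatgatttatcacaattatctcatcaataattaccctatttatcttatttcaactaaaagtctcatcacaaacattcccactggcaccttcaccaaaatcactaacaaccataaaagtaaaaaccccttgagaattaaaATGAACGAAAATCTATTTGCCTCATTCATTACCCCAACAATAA
The tRNA that held most tRNA counts was mt-Ts1 (ENSMUSG00000064352), a serine tRNA of 69 bases, shown whole.
mt-Ts1: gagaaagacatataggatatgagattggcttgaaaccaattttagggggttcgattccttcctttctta
The gene mt-Ts1 lies on the strand opposite most other mitochondrial genes, as does the complex I gene mt-Nd6 (ENSMUSG00000064368). Strandedness was not stated for the counting, so counts of these genes cannot be told from antisense RNA of the long precursor.

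The copies took most of the counts of some genes and almost none of others. For mt-Nd3, between 99.7% and 100% of the summed counts of gene and copy stood on Gm28438 in the 12 granulosa libraries and between 95.7% and 100% in the 12 oocyte libraries. The gene mt-Nd3 itself was listed at 0 in 20 of the 24 libraries and at no more than 8 counts in any, so its own level was not measurable here. For the complex I gene mt-Nd4l (ENSMUSG00000065947), the copies held 76.4% to 84.5% in granulosa cells, with a median of 79.5%. In oocytes its counts were all on the copies in most libraries, with a median of 100% and a range of 0% to 100%. Among the complex IV genes, mt-Co3 (ENSMUSG00000064358) had a median of 54.6% on its copies in oocytes and 51.1% in granulosa cells, mt-Co2 (ENSMUSG00000064354) 41.8% and 29.9%, and mt-Co1 (ENSMUSG00000064351) 23.9% and 17.5%. Copies of mt-Co2, mt-Co3 and mt-Atp6 (Gm28661, Gm28437 and Atp6-ps) showed 0 differences from them over 681, 783 and 678 aligned bases. The share of mt-Atp6 on its copy had a median of 12.3% in oocytes and 7.68% in granulosa cells, and mt-Nd2, mt-Nd4 and mt-Nd5 had at most 0.627% on copies in any library. Levels of mt-Co3, mt-Co2, mt-Nd4l and mt-Nd3 below are therefore those of the deposited division, and sums with the copies stand beside those results whose direction or order they change.

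**Figure D1:**
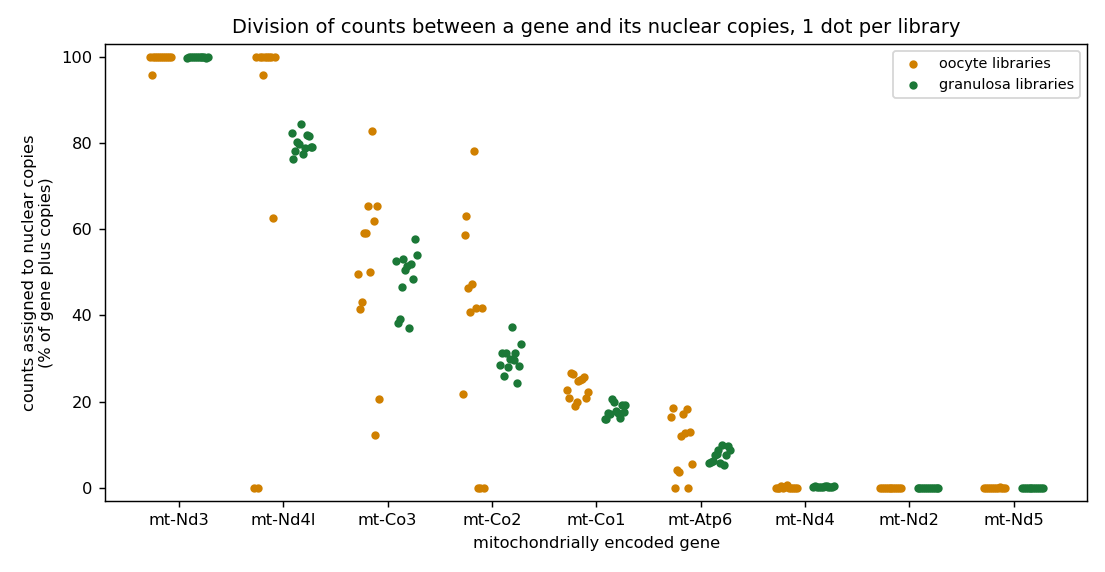
Percent of the summed counts of a mitochondrial gene and its nuclear copies that stood on the copies, for 9 genes (horizontal axis) in oocytes and in granulosa cells, with 1 dot per library. All libraries of mt-Nd3 lie at or above 95.7%, mt-Co3 spreads from 12.3% to 82.8% in oocytes and from 37.05% to 57.8% in granulosa cells, and mt-Nd2, mt-Nd4 and mt-Nd5 lie near 0.

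The libraries held 14244057 to 18399462 counts in oocytes and 16432256 to 22430951 in granulosa cells. A count of 0 allows up to 3 counts, which is a level of at most 0.211 CPM (counts scaled to one common library total) in any library. Oocyte markers, among them Gdf9, summed to 23659 to 34266 CPM in oocyte libraries and 3 to 38 CPM in granulosa libraries, so the cell types were as labelled. Several libraries stood apart. Control oocyte replicates 1 and 2 held 605 and 2536 CPM of 15 granulosa markers, against 116 and 78.3 CPM in control replicates 3 and 4. The inhibin gene Inha, the defining granulosa marker, was at 283, 1513, 37.2 and 12.5 CPM in the 4 control oocyte libraries. Among granulosa libraries, blebbistatin replicate 1 had the fewest genes detected, 14538. The macrophage gene Lyz2 was at 374, 647, 0 and 0 CPM under blebbistatin and at no more than 7.55 CPM in the dextran and control granulosa libraries. Results that rest on these libraries are given with and without them.

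Mitochondrially encoded genes made up a much smaller share of the RNA counted in oocytes than in granulosa cells. Their share of all counts was 0.299%, 0.525%, 0.080% and 0.131% in control oocytes, against 3.85%, 4.52%, 2.60% and 2.96% in control granulosa cells. Every oocyte library lay below every granulosa library, also under the treatments, where oocytes ranged from 0.101% to 0.317% and granulosa cells from 3.41% to 9.53%. The mean was 0.259 ± 0.201% in control oocytes and 3.48 ± 0.869% in control granulosa cells (SD, n = 4 each), 13.5-fold lower in oocytes. Without control oocyte replicates 1 and 2, the pair with the most granulosa marker RNA, it was 33.1-fold lower. In bulk RNA a lower share cannot be told apart from a larger amount of other RNA per cell, or from a mixture of cells with different content.

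**Figure D2:**
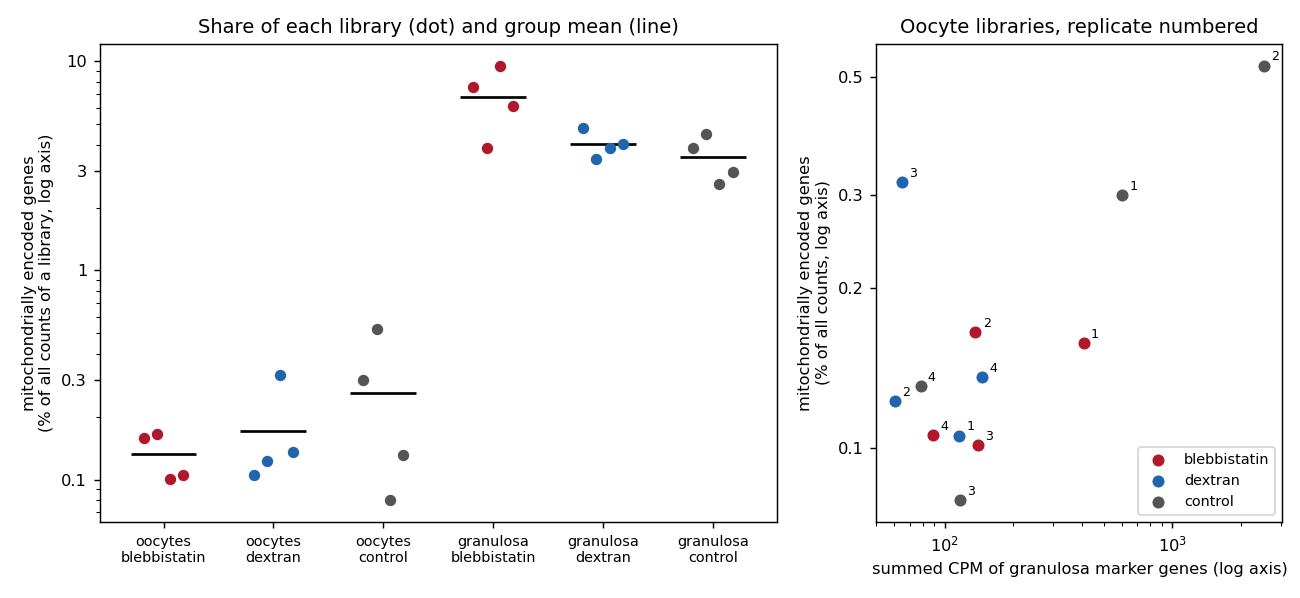
Left, share of all counts held by the mitochondrially encoded genes (percent, log axis) in each library (dot) of the 6 groups, with the group mean (line). Right, the same share (log axis) in the 12 oocyte libraries against the summed CPM of the granulosa marker genes (log axis), numbered by replicate. The oocyte libraries lie between 0.080% and 0.525% and the granulosa libraries between 2.60% and 9.53%, and control oocyte replicate 2 is highest on both axes of the right plot.

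By gene, 17 mitochondrial genes passed the filter on low counts in the joint test of both cell types, and 16 of them were lower in control oocytes than in control granulosa cells, while 32.9% of all 20601 genes tested were lower. The median log2 change of the 17 was −3.47, against 0.41 over all genes. Libraries of the cell types did not overlap for the same 16 genes, against 32.6% of all genes lower without overlap. The exception was the leucine tRNA gene mt-Tl1, which had 5 to 37 counts in the granulosa libraries and a log2 change of −1.77 ± 0.88 (SE; edgeR adjusted p = 0.0736). The 2 rRNA genes differed least among the genes that passed. The 16S rRNA gene mt-Rnr2 (ENSMUSG00000064339) was at 602, 655, 298 and 346 CPM in control oocytes, against 3820, 3885, 2738 and 3050 CPM in control granulosa cells (log2 change −2.45 ± 0.33, edgeR adjusted p = 1.32e-06). The 12S rRNA gene mt-Rnr1 (ENSMUSG00000064337) was at 144, 168, 70.8 and 88.6 CPM in control oocytes, against 1045, 992, 776 and 832 CPM in control granulosa cells (−2.58 ± 0.33). Values of the 4 control oocyte libraries were far apart for both rRNAs, and replicates 1 and 2 were the high pair.

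Protein genes of each complex were lower in oocytes to a similar extent, with wide errors. Cytochrome b, mt-Cytb (ENSMUSG00000064370), the mitochondrially encoded subunit of complex III, was at 475, 983, 51.0 and 118 CPM in control oocytes, against 8417, 9416, 5191 and 5720 CPM in control granulosa cells. That was a log2 change of −3.72 ± 0.77 (edgeR adjusted p = 0.000212), with oocyte replicates 2 and 3 at the ends of the oocyte range. The catalytic subunit of complex IV, mt-Co1, showed −3.51 ± 0.58, mt-Co2, which takes electrons from cytochrome c, −3.79 ± 0.74, and the third core subunit mt-Co3 −3.47 ± 0.50. Of complex V, mt-Atp6, part of the proton channel, showed −3.47 ± 0.60 and its small partner mt-Atp8 −3.42 ± 0.61. The complex I genes ranged from −2.65 ± 0.48 for mt-Nd2 (ENSMUSG00000064345) to −3.73 ± 0.65 for mt-Nd4 (ENSMUSG00000064363), apart from mt-Nd4l. That gene stood at 0, 33, 0 and 0 counts in the control oocyte libraries (log2 change −6.52 ± 1.53), and its sum with the nuclear copies had a log2 change of −3.89. Without control oocyte replicates 1 and 2, 19 of 19 mitochondrial genes then tested were lower, against 29.3% of all genes, with a median of −4.98.

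The make-up of the mitochondrial counts also differed between the cell types. The 2 rRNAs held 24.9%, 15.7%, 46.4% and 33.2% of the mitochondrial counts in control oocytes, against 12.6%, 10.8%, 13.5% and 13.1% in control granulosa cells. Under the treatments their part was 19.5% to 37.5% in oocytes and 10.8% to 18.9% in granulosa cells, so control oocyte replicate 2, the library with the most granulosa marker RNA, was the single oocyte library inside the granulosa range. The control means were 30.1 ± 13.04% in oocytes and 12.5 ± 1.20% in granulosa cells (SD, n = 4 each). In control granulosa cells the gene with the largest part was mt-Cytb, at 21.8%, 20.9%, 20.0% and 19.3% of the mitochondrial counts. It held 15.9%, 18.7%, 6.41% and 9.03% in control oocytes. No test was made of these parts, which sum to the whole in each library and so are not independent of each other.

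**Figure D3:**
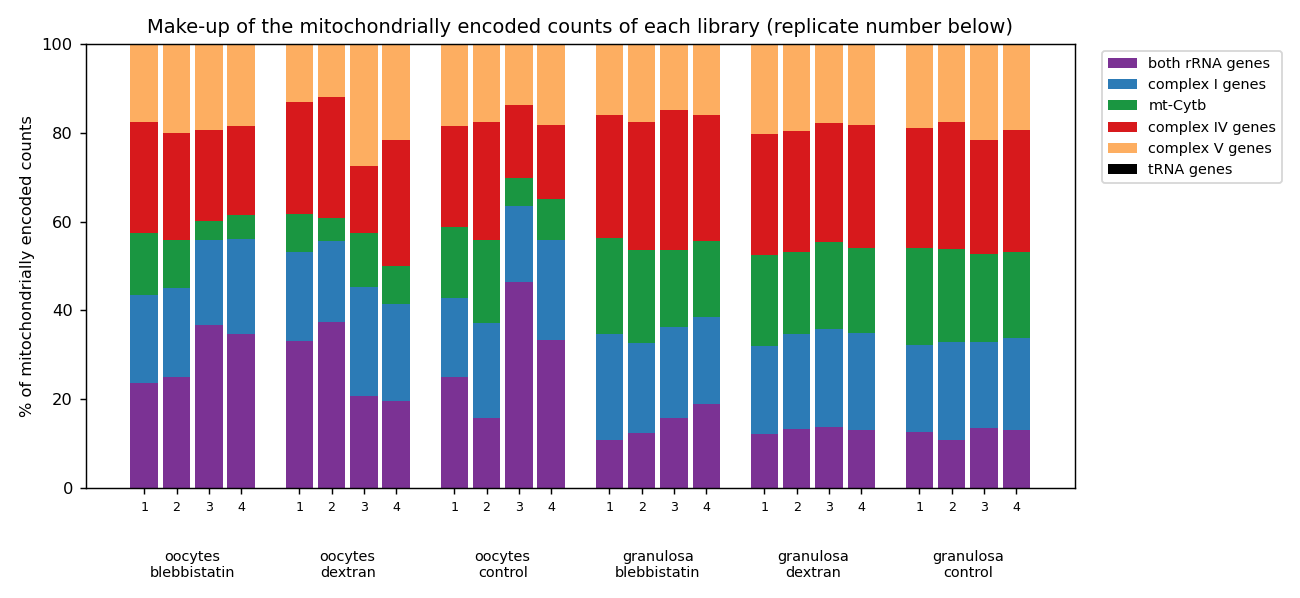
Make-up of the mitochondrially encoded counts in each of the 24 libraries (stacked bars, percent of the mitochondrial counts of that library). The rRNA part reaches 46.4% in control oocyte replicate 3 and stays between 10.8% and 18.9% in granulosa libraries.

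Levels per kilobase of transcript set the genes in an order within a cell type, which depends on the libraries and on the copies. As deposited, the order of means over the 12 oocyte libraries began with mt-Atp6 at 433 ± 336 CPM per kilobase (SD, n = 12), mt-Atp8 at 296 ± 242, mt-Rnr2 at 238 ± 89.6 and mt-Cytb at 202 ± 239. Summed with its copy, mt-Co3 stood at rank 2 with 364 ± 225, against rank 6 with 162 as deposited. The first 3 as deposited were the same under blebbistatin, under dextran and without control replicates 1 and 2, while in control mt-Cytb had rank 3 with 355 ± 373 (SD, n = 4) and mt-Rnr2 rank 4 with 300.4 ± 113. Without that control pair mt-Cytb had rank 6, with 115 ± 91.3 (SD, n = 10). By library, as deposited, mt-Atp6 was highest in 9 of the 12 oocyte libraries. In the other 3, control replicate 3 and dextran replicates 1 and 2, it was mt-Rnr2. With the copies summed, mt-Atp6 was highest in 7, mt-Co3 in 3 (blebbistatin replicate 3, control replicate 4 and dextran replicate 1) and mt-Rnr2 in 2. In granulosa cells mt-Atp6 was highest in all 12 libraries. The order of means there began with mt-Atp6 at 10157 ± 3236 and mt-Cytb at 8108 ± 3201 CPM per kilobase (SD, n = 12). The 16S rRNA gene mt-Rnr2, at 3251 ± 1800, stood behind 6 protein genes as deposited and behind 7 with the copies summed, which put mt-Co3 at 6109 ± 2217. By group, as deposited, it stood behind 5 protein genes under blebbistatin and behind 7 under dextran and in control. Near the low end stood mt-Nd6, at 31.8 CPM per kilobase in oocytes and 909 in granulosa cells. As deposited, mt-Nd4l and mt-Nd3 were last in both. Neighbours in either deposited order over 12 libraries differed by less than the larger of their SDs, except at the steps to mt-Nd4l and mt-Nd3 in granulosa cells and to mt-Nd4l in oocytes.

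The tRNAs were almost uncounted. All 22 tRNA genes together had 185 counts in the 12 oocyte libraries and 3709 in the 12 granulosa libraries. In oocytes 6 tRNA genes, and in granulosa cells 1 (mt-Ts2), were at 0 in every library. The 8 tRNA genes on the strand opposite most genes held 77.8% of these counts in oocytes and 90.5% in granulosa cells, and mt-Ts1 alone held 37.3% and 70.4%. In granulosa cells mt-Ts1 and the glutamate tRNA gene mt-Te (ENSMUSG00000064369) averaged at least 1 CPM, and no tRNA did in oocytes.

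In granulosa cells, blebbistatin libraries gave the highest mitochondrial shares of the study. The share was 7.55%, 3.86%, 9.53% and 6.09% under blebbistatin, against 3.85%, 4.52%, 2.60% and 2.96% in control. Blebbistatin replicates 1, 3 and 4 lay above all control libraries and replicate 2 lay among them. Of 16 pairs of a blebbistatin and a control library, 15 had the higher share under blebbistatin, and 14 with the nuclear copies added. The means were 6.76 ± 2.39% under blebbistatin and 3.48 ± 0.869% in control (SD, n = 4 each), a ratio of 1.94. All 17 tested mitochondrial genes had a positive log2 change, against 45.4% of the 15370 genes tested, and their median was 1.01, against −0.05 over all genes. None of the 17 passed the threshold of 0.05 on the adjusted p in edgeR's quasi-likelihood test over all genes, where 0.00651% of all genes passed. An unadjusted p under 0.05 was reached by 15 of 17, all positive, against 5.36% of all genes. Limma voom called 0 of 17, where it called 0.00651% of all genes higher, and DESeq2 called 13, where it called 1.39% higher. These genes are cut from shared precursors, so they are not 17 independent observations. The number called rested on blebbistatin replicate 2. Without it 7 of 18 mitochondrial genes passed in edgeR as higher, against 0.22% of all genes, with a median log2 change of 1.27.

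Both rRNA genes, which lie at the head of their precursor strand, had positive log2 changes. The 16S rRNA gene mt-Rnr2 was at 6681, 3825, 12168 and 9272 CPM under blebbistatin, against 3820, 3885, 2738 and 3050 CPM in control. Its log2 change was 1.27 ± 0.28 (edgeR adjusted p = 0.150), and blebbistatin replicate 2 lay between control replicates 1 and 2. The 12S rRNA gene mt-Rnr1 was at 1441, 964, 2858 and 2260 CPM under blebbistatin, against 1045, 992, 776 and 832 CPM in control (1.08 ± 0.28, edgeR adjusted p = 0.204). Replicates 3 and 4 were the high libraries for both rRNAs, whereas replicates 1 and 3 were the high ones for all 12 protein genes tested.

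Complex I subunits lay between log2 changes of 0.86 for mt-Nd1 and 1.35 for mt-Nd5. The proton-pumping subunit mt-Nd5 (ENSMUSG00000064367) was at 4110, 1497, 4606 and 2611 CPM under blebbistatin, against 1363, 1833, 840 and 1080 CPM in control (1.35 ± 0.32, edgeR adjusted p = 0.184). The gene mt-Nd4l was at 133, 76.9, 175 and 108 CPM under blebbistatin, against 69.2, 60.2, 49.6 and 55.0 CPM in control (1.11 ± 0.23, edgeR adjusted p = 0.110). It had the smallest p of all 17, and it and mt-Tl1 were the only members whose groups did not overlap, where 2.46% of all genes were higher without overlap. That holds for the part of its counts that the deposited division left on mt-Nd4l. Summed with its copies, mt-Nd4l was at 759, 325, 800 and 548 CPM under blebbistatin, against 343, 388, 221 and 260 CPM in control. The sum had a log2 change of 1.03 (edgeR adjusted p = 0.205), with blebbistatin replicate 2 inside the control range. The gene mt-Nd6, on the opposite strand, was at 907, 330, 1031 and 637 CPM under blebbistatin, against 353, 476, 202 and 257 CPM in control (1.20 ± 0.33, edgeR adjusted p = 0.232). The sum of mt-Nd3 and its copies, which could be measured although the gene could not, was 167, 72.3, 172 and 73.9 CPM under blebbistatin, against 66.2, 79.8, 49.1 and 37.97 CPM in control (1.08 ± 0.32, edgeR adjusted p = 0.258).

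For complexes III to V the changes were from 0.66 to 1.15. Cytochrome b, mt-Cytb, was at 16255, 8013, 16451 and 10395 CPM under blebbistatin, against 8417, 9416, 5191 and 5720 CPM in control (0.85 ± 0.26, edgeR adjusted p = 0.272). The complex IV gene mt-Co1 was at 12477, 5790, 17814 and 10488 CPM under blebbistatin, against 5702, 7022, 3824 and 4824 CPM in control (1.15 ± 0.29, edgeR adjusted p = 0.201). In both genes blebbistatin replicate 2 lay within the control range and the other 3 libraries above it. The complex V genes had the smallest values of the protein genes, with mt-Atp8 at 1988, 1092, 2321 and 1643 CPM under blebbistatin, against 1246, 1384, 925 and 993 CPM in control (0.66 ± 0.22). The proton channel gene mt-Atp6 was at 10015, 5710, 11859 and 8078 CPM under blebbistatin, against 6000, 6528, 4660 and 4757 CPM in control (0.73). The other members were mt-Co2 (1.09), mt-Co3 (0.90), mt-Nd2 (0.88) and mt-Nd4 (1.01), all with edgeR p under 0.05 before adjustment and none after it. Among tRNAs, mt-Ts1 was at 17.8, 6.65, 19.5 and 12.7 CPM under blebbistatin, against 11.3, 11.5, 7.05 and 7.49 CPM in control (0.63 ± 0.35, edgeR adjusted p = 0.556). The tRNA gene mt-Te had a log2 change of 0.61 ± 0.53 (edgeR adjusted p = 0.731), and these tRNAs were the 2 members without an unadjusted p under 0.05.

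**Figure D4:**
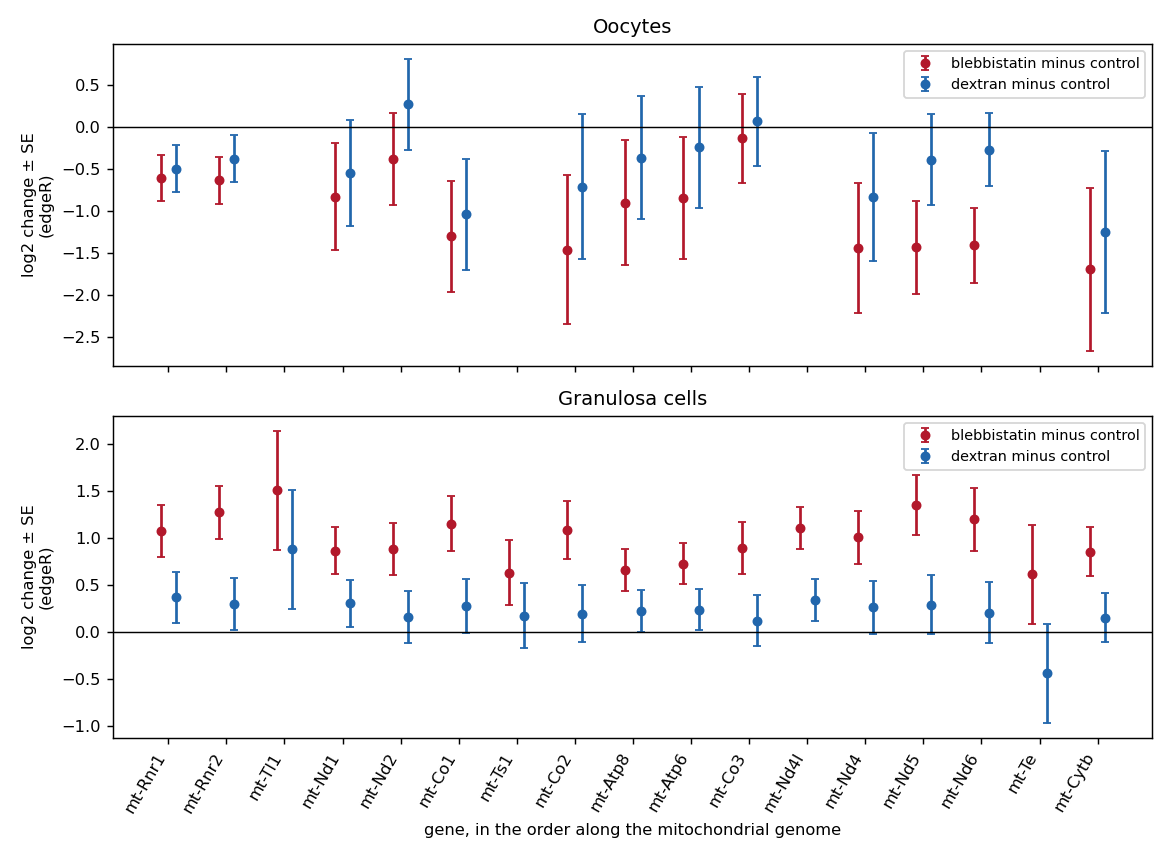
Log2 change of each tested mitochondrially encoded gene (points) with its standard error (bars) for blebbistatin against control and dextran against control. Oocytes are at the top, without mt-Nd4l, and granulosa cells at the bottom. In granulosa cells the changes under blebbistatin against control run from 0.61 to 1.51 with a median of 1.01, and those under dextran against control have a median of 0.23.

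Other features of the blebbistatin granulosa libraries also differed from control, and their part in the result was not tested. The 15 granulosa markers summed to 17555, 22112, 19783 and 22741 CPM under blebbistatin, against 29290, 26273, 34209 and 28598 CPM in control, without overlap. Of these markers 13 of 15 had a negative log2 change, against 54.6% of all genes. An unadjusted p under 0.05 was reached by 7 of the 13, against 5.06% of all genes lower. None passed in edgeR, where 0.00651% of all genes passed. The 15 theca and stroma markers summed to 1694, 427, 1136 and 489 CPM under blebbistatin, against 392, 25.9, 80.9 and 401 CPM in control, again without overlap. The libraries with the highest sums, replicates 1 and 3, also had the highest mitochondrial shares. The nuclear RNA Malat1 was at 3735, 1409, 2517 and 2610 CPM under blebbistatin, against 1195, 868, 1582 and 1289 CPM in control. Its lowest blebbistatin library was replicate 2. In control the order was another, with the highest share, 4.52%, in replicate 2, which had the lowest theca and stroma sum and Malat1 level. Control replicate 3 had the lowest share, 2.60%, and the highest Malat1 level. Without blebbistatin replicates 1 and 2, the libraries with Lyz2, the ratio of the mean shares was 2.24 and 3 of 18 mitochondrial genes passed in edgeR as higher, against 0.0649% of all genes, namely mt-Rnr1, mt-Rnr2 and mt-Nd4l.

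Dextran libraries of granulosa cells lay close to control. The share was 4.82%, 3.41%, 3.85% and 4.02% under dextran, against 3.85%, 4.52%, 2.60% and 2.96% in control, with overlapping ranges. The means were 4.03 ± 0.591% under dextran and 3.48 ± 0.869% in control (SD, n = 4 each), a ratio of 1.16, with 11 of 16 pairs higher under dextran. Of 17 genes 16 had a positive log2 change, against 49.5% of all genes, with a median of 0.23 and a range from −0.44 for mt-Te to 0.88 for mt-Tl1. None passed in edgeR, where 0% of all genes passed, and none had an unadjusted p under 0.05, against 2.37% of all genes higher. Limma voom called 0 of the 17, where it called 0 of all 15370 genes, and DESeq2 called 0, where it called 0.221% of all genes higher. The smallest p was that of mt-Nd4l, at 75.3, 58.5, 73.6 and 83.0 CPM under dextran, against 69.2, 60.2, 49.6 and 55.0 CPM in control (0.33 ± 0.22, edgeR adjusted p = 0.9999). The tRNA gene mt-Tl1 was at 0.582, 1.06, 0.806 and 0.585 CPM under dextran, against 0.570, 0.490, 0.284 and 0.304 CPM in control, which are 11 to 21 and 5 to 12 counts. It was the single member without overlap, against 2.67% of all genes.

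Blebbistatin set against dextran gave a positive log2 change in all 17 genes, against 44.7% of all genes, with a median log2 change of 0.75 and a range from 0.44 to 1.06. This comparison and the preceding one share libraries with the comparison of blebbistatin and control, and are not independent of it. The share was a mean of 6.76% under blebbistatin and 4.03% under dextran, a ratio of 1.68. Of 16 pairs 14 were higher under blebbistatin, and 13 with the nuclear copies added. None of the 17 passed in edgeR, where 0% of all genes passed, and 13 had an unadjusted p under 0.05, against 3.96% of all genes higher. Limma voom called 0, where it called 0 of all 15370 genes. DESeq2 called mt-Rnr2 and mt-Nd5, where it called 0.677% of all genes higher. For these 2 edgeR gave log2 changes of 0.98 ± 0.28 (adjusted p = 0.341) and 1.06 ± 0.32 (adjusted p = 0.370).

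In oocytes, differences of the mitochondrial genes between treatments lay within the spread of the libraries, and their sign depended on a few libraries. The share was 0.157%, 0.165%, 0.101% and 0.105% under blebbistatin, 0.105%, 0.122%, 0.317% and 0.136% under dextran, and 0.299%, 0.525%, 0.080% and 0.131% in control. Dextran replicate 3 and control replicates 1 and 2 stood above all other oocyte libraries, and the groups overlapped. The means were 0.132 ± 0.0337% under blebbistatin, 0.170 ± 0.0986% under dextran and 0.259 ± 0.201% in control (SD, n = 4 each). The ratio to control was 0.511 for blebbistatin and 0.658 for dextran. Without control replicates 1 and 2 these ratios were 1.26 and 1.62, and without dextran replicate 3 the ratio for dextran was 0.468.

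The granulosa marker sum was 408, 136, 140 and 88.8 CPM under blebbistatin, 115, 60.3, 64.8 and 146 CPM under dextran, and 605, 2536, 116 and 78.3 CPM in control. Control replicates 2 and 1, ranks 1 and 3 in mitochondrial share among the 12 oocyte libraries, had the highest granulosa marker sums. Dextran replicate 3, rank 2 in share, had a marker sum of 64.8 CPM, among the lowest, and 0.754 CPM of Inha. The part of granulosa RNA in the oocyte shares was not tested. The nuclear RNA Malat1, at 117, 300, 1.23 and 1.56 CPM in the 4 control oocyte libraries, was high in the same control pair.

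Of the 14 mitochondrial genes tested in oocytes, 0 passed for blebbistatin against control in edgeR, where 0% of all 16749 genes passed. The log2 change was negative for 13 of 14, against 51.4% of all genes, with a median of −0.88. An unadjusted p under 0.05 was reached by 4, all negative, against 2.72% of all genes lower. Limma voom called 0 of the 14, where it called 0 of all 16749 genes, and DESeq2 called 0, where it called 0.0896% of all genes lower. The 4 were mt-Nd6, mt-Nd5 and both rRNAs. The exception in sign was mt-Nd4l, at 2.44 ± 2.20 as deposited and −1.65 ± 0.76 summed with its copy. The gene mt-Nd6 was at 10.98, 9.83, 5.25 and 8.05 CPM under blebbistatin, against 16.9, 48.6, 9.99 and 15.7 CPM in control (−1.41 ± 0.45, edgeR adjusted p = 0.9999). The gene mt-Nd5 was at 40.4, 35.5, 19.4 and 27.8 CPM under blebbistatin, against 82.4, 170, 27.2 and 55.2 CPM in control (−1.43 ± 0.55, edgeR adjusted p = 0.9999). In both, the highest and the lowest control libraries were replicates 2 and 3, and the groups overlapped. The 16S rRNA gene mt-Rnr2 was even across blebbistatin oocytes, at 293, 320, 308 and 294 CPM, against 602, 655, 298 and 346 CPM in control (−0.64 ± 0.28, edgeR adjusted p = 0.9999), and mt-Rnr1 showed −0.61 ± 0.27. Larger negative values came with larger errors, as for mt-Cytb at 220, 177, 42.6 and 57.4 CPM under blebbistatin, against 475, 983, 51.0 and 118 CPM in control (−1.70 ± 0.97). Without control replicates 1 and 2 the median was 0.49 and 10 of 14 log2 changes were positive, against 51.8% of all genes.

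Dextran oocytes gave a like picture with dextran replicate 3 as the library apart. Against control, 0 of 14 genes passed in edgeR, where 0% of all genes passed, and 0 had an unadjusted p under 0.05, against 3.52% of all genes lower. Limma voom called 0 of the 14, where it called 0 of all 16749 genes, and DESeq2 called 0, where it called 0.0239% of all genes lower. The log2 change was negative for 11 of 14, against 49.5% of all genes, with a median of −0.39. With the copies summed it was negative for 13 of 15, mt-Nd4l being at −1.15 ± 0.75 and mt-Co3 at −0.54 ± 0.52, against 1.87 ± 2.18 and 0.06 ± 0.53 as deposited. The smallest p was that of mt-Rnr1, at 64.2, 96.2, 111 and 51.0 CPM under dextran, against 144, 168, 70.8 and 88.6 CPM in control (−0.50 ± 0.27, edgeR adjusted p = 0.942). The complex V gene mt-Atp6 was at 113, 127, 722 and 246 CPM under dextran, against 462, 752, 87.3 and 200 CPM in control (−0.24 ± 0.72), and mt-Nd2 at 46.8, 42.1, 209 and 66.0 CPM under dextran, against 79.2, 139, 31.4 and 66.2 CPM in control (0.27 ± 0.54). In both genes the highest dextran library was replicate 3 and the highest control library replicate 2. The median was −1.05 without dextran replicate 3, 0.22 without control replicate 2, and 0.96 without control replicates 1 and 2, where all 14 log2 changes were positive, against 52% of all genes, and 2 had an unadjusted p under 0.05, against 3.29% of all genes higher.

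Blebbistatin against dextran in oocytes gave 13 of 14 negative log2 changes, against 50.2% of all genes, with a median of −0.49 and 0 genes passing in edgeR, where 0% of all genes passed. With the copies summed all 15 were negative, mt-Nd4l being at −0.50 ± 0.75, against 0.57 ± 2.05 as deposited. DESeq2 and limma voom called 0, where each called 0 of all 16749 genes. The 1 gene with an unadjusted p under 0.05, against 2.29% of all genes lower, was mt-Nd6, at 10.98, 9.83, 5.25 and 8.05 CPM under blebbistatin, against 11.6, 14.5, 31.2 and 15.2 CPM under dextran (−1.14 ± 0.44, edgeR adjusted p = 0.999). The highest blebbistatin library lay just below the lowest dextran library, and 1.34% of all genes were lower without overlap. Without dextran replicate 3 the median was 0.08.

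Whether the response to blebbistatin differed between the cell types was tested as an interaction, the log2 change in oocytes minus that in granulosa cells. It was negative for 16 of 17 genes, against 56.6% of the 20601 genes tested, with a median of −2.02, against −0.10 over all genes. In edgeR 0 of 17 passed, where 0.00485% of all genes passed as lower, and 13 had an unadjusted p under 0.05, all negative, against 7.48% of all genes lower. That count was 1 of 17 in limma voom, against 4% of all genes, and 4 of 19 in edgeR without control oocyte replicates 1 and 2, against 2.21% of all genes. With the copies summed, all 18 genes then tested were negative, where 58.0% of all 20593 genes were positive and their median was 0.12. An unadjusted p under 0.05 was reached by 12 of the 18, against 944 of the 20593 genes as lower. The background of that fit thus differed, and mt-Rnr1, to which no copy was added, went from −1.79 to −1.49. The gene mt-Nd4l, the exception as deposited, was at −2.46 ± 0.83, against 1.19 ± 1.80 as deposited. The smallest p was that of mt-Rnr2 (−2.02 ± 0.45, edgeR adjusted p = 0.102), followed by mt-Nd6 (−2.74 ± 0.64, 0.126) and mt-Nd5 (−2.92 ± 0.69, 0.127). DESeq2 called 5 of the 17, against 1% of all genes lower, namely mt-Rnr1, mt-Rnr2, mt-Co1, mt-Nd5 and mt-Nd6. Limma voom called 0 of the 17, where it called 0 of all 20601 genes as lower. Without blebbistatin granulosa replicate 2, edgeR called 4 of 18 as lower, against 0.145% of all genes. Without control oocyte replicates 1 and 2, the pair rich in granulosa markers, the median was −0.37, against 0.27 over all genes. For dextran 0 genes passed in edgeR, where 0% of all genes passed. The median was −0.84, against −0.16 over all genes, and mt-Rnr1 had the single unadjusted p under 0.05 (−1.005 ± 0.44, edgeR adjusted p = 0.474), against 7.76% of all genes lower. Without control oocyte replicates 1 and 2 the median of the mitochondrial genes for dextran was 0.85, against 0.096 over all genes.

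Nuclear genes that work with the mitochondrial genome had mostly small log2 changes under blebbistatin in granulosa cells. Of the nuclear subunits tested in granulosa cells, the log2 change was negative for 32 of 36 of complex I (median −0.18), 8 of 9 of complex III (−0.17), 12 of 14 of complex IV (−0.18) and 17 of 18 of complex V (−0.13), against 54.6% and a median of −0.05 over all genes. None of these subunits passed in edgeR or limma voom, where each called 1 of all 15370 genes. DESeq2 called 1 of complex I and 1 of complex V as lower, against 1.07% of all genes, and 3, 2, 1 and 2 subunits of the 4 complexes had an unadjusted p under 0.05 on the negative side, against 5.06% of all genes. The accessory complex I subunit gene Ndufs4 was at 161 ± 42.1 scaled CPM under blebbistatin and 245 ± 8.92 in control (SD, n = 4 each; −0.61 ± 0.16, edgeR adjusted p = 0.216). Scaled CPM are relative to the TMM-scaled library total. Ratios of the summed CPM of the 13 mitochondrially encoded subunits to those of 78 nuclear subunits were 4.49, 1.76, 4.67 and 2.55 under blebbistatin, 2.28, 1.54, 1.94 and 1.79 under dextran, and 1.65, 1.97, 1.12 and 1.36 in control. The means were 3.37 ± 1.44 under blebbistatin, 1.89 ± 0.311 under dextran and 1.53 ± 0.369 in control (SD, n = 4 each), and blebbistatin replicate 2 was again among the controls. The gene Atp5po stands on 2 table rows, both of which are in the nuclear sum. The nuclear sum was 17674 ± 2012 CPM under blebbistatin and 19934 ± 714 CPM in control, lowest at 15026 CPM in blebbistatin replicate 1.

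**Figure D5:**
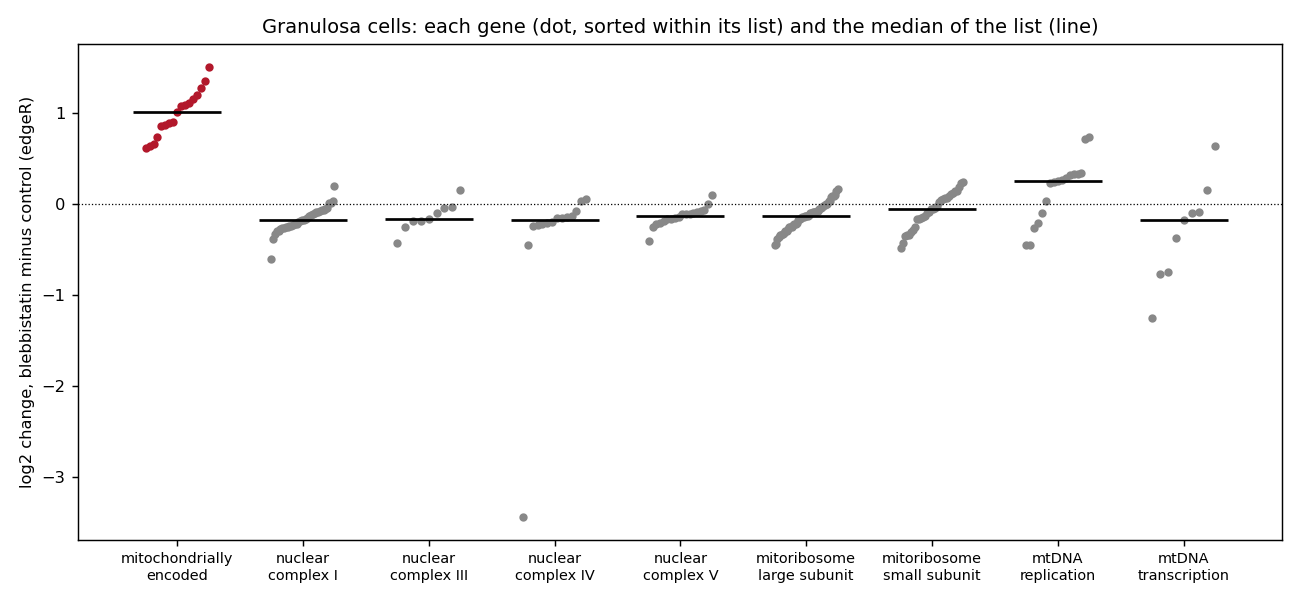
Log2 changes under blebbistatin against control in granulosa cells of the tested mitochondrially encoded genes and of 8 lists of nuclear genes (1 point per gene, line at the median). The mitochondrially encoded genes have a median of 1.01, and the nuclear subunits of complexes I, III, IV and V medians of −0.13 to −0.18. The far point of complex IV, named after its value was seen, is Cox4i2, at −3.44 ± 1.66.

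Among the nuclear factors of mitochondrial gene expression, the RNA polymerase that transcribes the mitochondrial genome, Polrmt, had the smallest p. It was at 9.34 ± 2.11 scaled CPM under blebbistatin and 22.2 ± 5.12 in control (SD, n = 4 each; −1.25 ± 0.29, edgeR adjusted p = 0.164), and did not pass. The genome-packaging factor Tfam showed 0.15 ± 0.13. Of 9 transcription genes 7 were negative (median −0.18), of 17 replication and maintenance genes 12 were positive (0.25), with the DNA polymerase Polg at 0.71 ± 0.27. Of 29 genes of mitochondrial RNA processing 18 were negative (−0.07). The mitochondrial ribosomal proteins had negative log2 changes for 41 of 49 of the large subunit (−0.14) and 19 of 32 of the small subunit (−0.06), among them Mrpl33 (−0.38 ± 0.09) and Mrps21 (−0.49 ± 0.12). Of 28 translation factors 16 were positive (0.03), with the leucyl-tRNA synthetase Lars2 at 0.62 ± 0.19. None of the genes of these lists passed in edgeR or limma voom, where each called 1 of all 15370 genes. DESeq2 called 1 of the transcription genes and 1 of each ribosomal subunit as lower, against 1.07% of all genes. Under dextran 35 of 36 complex I subunits had a negative log2 change in granulosa cells (median −0.10), against 50.5% of all genes in that comparison, and the medians of complexes III, IV and V were −0.047, −0.12 and −0.081. In oocytes under dextran 30 of 36 complex I subunits and 8 of 9 complex III subunits were negative (medians −0.13 and −0.14), against 49.5% of all genes. The medians of complexes IV and V were −0.053 and −0.085 there. None of these subunits passed in edgeR, limma voom or DESeq2 under dextran. Over all genes edgeR and limma voom called 0 in both cell types. DESeq2 called 34 higher and 8 lower of 15370 genes in granulosa cells, and 0 and 4 of 16749 in oocytes. In oocytes 4 subunits of complex I and 4 of complex III had an unadjusted p under 0.05 on the negative side, against 3.52% of all genes. In oocytes under blebbistatin the medians were −0.037, 0.042, 0.042 and −0.0018 for complexes I, III, IV and V, with 0 subunits called by the same tools. Of all 16749 genes, edgeR and limma voom called 0 there, and DESeq2 called 1 higher and 15 lower.

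Between oocytes and granulosa cells in control, nuclear subunits were lower too, by less than the mitochondrially encoded ones. Of complex I, 29 of 36 passed as lower in oocytes and 2 as higher (median −0.91), of complex III 8 of 9 and 1 (−1.52), of complex IV 11 of 15 and 2 (−1.67), and of complex V 13 of 18 and 1 (−1.28), against 32.9% lower, 44.4% higher and a median of 0.41 over all genes. The mitochondrially encoded sum was 0.309, 0.572, 0.0512 and 0.112 times the nuclear sum in control oocytes, against 1.65, 1.97, 1.12 and 1.36 times in control granulosa cells. The nuclear sum itself was 7775 ± 428 CPM in control oocytes and 19934 ± 714 CPM in control granulosa cells (SD, n = 4 each). Every oocyte library lay below every granulosa library for the ratio. Over the 12 oocyte libraries the ratio ran from 0.0512 to 0.572, while the nuclear sum ran from 6738 to 8332 CPM.

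Factors of mitochondrial gene expression went both ways between the cell types. Polrmt was higher in oocytes, at 89.1 ± 7.92 scaled CPM in control oocytes and 20.1 ± 4.68 in control granulosa cells (SD, n = 4 each; log2 change 2.15 ± 0.22), as were Mterf4 (3.07 ± 0.22) and its partner Nsun4 (3.80 ± 0.15), which act together in the assembly of the mitochondrial ribosome. The elongation factor gene Tefm (−1.08 ± 0.27) and Mterf3 (−0.81 ± 0.21) were lower. Of the 9 transcription genes 3 were higher and 4 lower, where 44.4% of all genes were higher and 32.9% lower, the shares against which the counts of the other lists stand too. The poly(A) polymerase gene Mtpap, which adds the tails of mitochondrial messages, was higher (1.85 ± 0.15) and the pseudouridine synthase gene Pus1 lower (−2.64 ± 0.23), among 14 higher and 11 lower of 29 genes of RNA processing. Of 17 replication genes 4 were higher, such as Rnaseh1 (3.14 ± 0.19), and 7 lower, such as the mitochondrial topoisomerase Top1mt (−4.08 ± 0.50). Mitochondrial ribosomal proteins were split, with 18 higher and 22 lower of 49 for the large subunit and 12 and 12 of 32 for the small one, and of 28 translation factors 5 were higher and 13 lower. All nuclear genes named for oocytes against granulosa cells passed in edgeR.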

How the data were processed

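For each cell type the authors deposited 1 table of salmon's estimated counts, covering 78298 genes, per the labels and file headers. The submitters' processing notes name GRCm39 as the build. Annotation release, salmon version, strandedness and any poly(A) step were not given in the sources used here. All RNA was extracted at the same time before cDNA amplification by 15 cycles of PCR, per the labels' protocols. Reads carry no stated molecular identifiers, so depth and the limit of 3 counts cover counting error only.

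The members and the gene lists were chosen with earlier results of these data known. Of the estimated counts, 12.2% had a fractional part and were rounded. Each cell type was fitted over its 12 libraries, and both together for the comparison and interaction of cell types, with filterByExpr, TMM factors and robust glmQLFit and glmQLFTest of edgeR 4.0.16 (R 4.3.3). Benjamini-Hochberg adjustment ran over all genes tested, and calls were made at an adjusted p under 0.05. The SE of a log2 change is its size divided by the square root of the F value. CPM in the text are relative to the unscaled library total unless called scaled. No test was made of shares, composition or ratios, and marker sums are plain sums of CPM.

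Nuclear copies were found as GENCODE vM21 transcripts of GRCm38 sharing at least 100 stretches of 31 bases with a mitochondrial gene, and matched to the deposited tables by identifier. No coordinates are given, because that reference is of another build than the tables. Named were all protein and rRNA genes, tRNA genes averaging 1 CPM or more in a cell type, and mt-Tl1, mt-Nd3 and Cox4i2 where a count or plot turned on them. From each of 22 nuclear or marker gene lists up to 2 higher and 2 lower genes of smallest p that passed were eligible, or 1 per direction where none passed.

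Alternatives were DESeq2 1.42.0, limma voom (limma 3.58.1), DESeq2 size factors in edgeR, scaling without the mitochondrial genes, no filter, only the groups compared, replicate number as a block, each library left out and other ways to form the share. Counts summed with the nuclear copies, and control oocyte replicates 1 and 2 or blebbistatin granulosa replicates 1 and 2 left out together, and the order of levels by group and with the copies summed, were added after seeing the data. The fits were tested on simulated counts with 100 genes changed 2-fold and 100 changed 4-fold, read for dextran against control only. The changed genes were drawn only from genes above a limit on mean level, and each gene was simulated independently. The rates therefore do not cover genes of low count or genes that vary together. In granulosa cells 30% of the 2-fold and 75% of the 4-fold changes were found, with 3 false among 108 calls. In oocytes 57% and 98% were found, with 9 false among 164 calls. With no change simulated, 0 genes were called. Between replicates the chi-square was at least 12.4 per gene, and all libraries were kept as separate samples.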

Additional observations from a re-analysis of the deposited data

Results flagged for a closer look

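In a group of 4 libraries, a library was picked out where its gap to the nearest other one took up more of the range of the group than Dixon's critical value for 4 values allows. Of 99 such checks, over 17 measures in 6 groups, 11 were met, and chance alone meets about 1 in 20. That rate does not apply to mt-Nd3 and mt-Nd4l where all other libraries of the group were at 0, because any count then meets the rule. The measures are not independent, because 6 of the 11 are genes of dextran oocyte replicate 3 and another is its mitochondrial share. No mitochondrial gene passed edgeR's test of a difference between the cell types in the response to a treatment, where DESeq2 called 5 for blebbistatin, and edgeR called 0 to 4 with single libraries left out.

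Dextran oocyte replicate 3 stood above the other dextran oocytes in its mitochondrial share, at 0.317% against 0.105% to 0.136%. The genes that picked it out were mt-Nd1 at 282 CPM against 81.0 to 109 CPM, mt-Nd2 at 209 CPM against 42.1 to 66.0 CPM, mt-Nd4 at 133 CPM against 37.8 to 50.8 CPM, mt-Co1 at 218 CPM against 142 to 149 CPM and mt-Cytb at 379 CPM against 63.0 to 116 CPM. It was also the 1 dextran oocyte library with counts on mt-Nd4l, at 6.32 CPM against 0. Its summed granulosa marker level was 64.8 CPM and its Inha level 0.754 CPM, both low among the oocyte libraries.

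In granulosa cells, blebbistatin replicate 3 had mt-Co3 at 5479 CPM against 2653 to 2987 CPM in the other blebbistatin libraries. These are levels of the deposited division. In granulosa libraries, 37.05% to 57.8% of the summed counts of mt-Co3 stood on its copies, and the check was not made on the sum. The remaining cases are genes whose counts lie mostly on nuclear copies. They are mt-Nd3 at 0.142 CPM in dextran granulosa replicate 3 and at 0.413 CPM in blebbistatin oocyte replicate 2, and mt-Nd4l at 1.79 CPM in control oocyte replicate 2, each with the other 3 libraries of its group at 0. The 0.142 CPM are 3 counts, which a count of 0 also allows.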

How the results depend on the processing

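For blebbistatin against control in granulosa cells, the edgeR fit described called 0 mitochondrial genes and DESeq2 13 as higher, against 1.39% of all genes. With no filter 1 was called as higher, against 13 of 35784 genes. Without blebbistatin replicates 1 and 2 it was 3, against 0.0649% of all genes. When single libraries were left out it was 0 to 7, the 7 against 0.22% of all genes. For blebbistatin against dextran there edgeR called 0, and DESeq2 called 2 as higher, against 0.677% of all genes. Without blebbistatin replicates 1 and 2 edgeR called 2 as higher, against 4 of 16940 genes. For the interaction of blebbistatin with cell type edgeR called 0, and DESeq2 called 5 as lower, against 1% of all genes. Without blebbistatin granulosa replicates 1 and 2 edgeR called 2 as lower, against 16 of 22478 genes. With single libraries left out it called 0 to 4, the 4 against 0.145% of all genes. The other counts moved by less than 1.5 times.

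Without control oocyte replicates 1 and 2, the sign of the median log2 change turned to 0.49 for blebbistatin and 0.96 for dextran against control in oocytes, and to 0.85 for the interaction of dextran. The log2 ratio of the mean shares turned to 0.33 and 0.69, and was −5.05 for oocytes against granulosa cells. There mt-Rnr1 for dextran in oocytes was at 0.041 and mt-Atp8 in the interaction of blebbistatin at 0.024. With single libraries left out, the median ran from −1.05 to 0.22 for dextran in oocytes, −0.73 to 0.083 for blebbistatin against dextran in oocytes and −1.30 to 0.12 for the interaction of dextran. The log2 share ratio ran from −1.09 to 0.00222 and from −0.54 to 0.13 for the same oocyte comparisons. For mt-Nd4l under dextran in oocytes the log2 change was 1.87, ran from −5.83 to 7.71 and was −1.15 summed with its copies. Apart from library choice and copies, the cause was not tested.

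Within a cell type, deviations of libraries of equal number from their group means correlated by −0.18 to 0.32 between treatments. Correlations over 0.1 ranged from 0 of 4 pairs, for blebbistatin and dextran oocytes, to 3 of 4, for blebbistatin and control oocytes. Oocyte and granulosa libraries of equal number were not compared, so whether the number pairs libraries was not settled. With the number as a block 0 mitochondrial genes were called in every treatment comparison and interaction. Over all genes 0 were called too, except 5 of 20601 as higher in the interaction of blebbistatin. For oocytes against granulosa cells 16 were called as lower, against 6705 of 20601 genes.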

Other observations

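Nuclear genes of mitochondrial upkeep that bear on the content of organelles went in both directions between the cell types in control. Of 17 genes used as measures of mitochondrial mass, 4 were higher and 9 lower in oocytes by edgeR (median log2 change −0.53). Over all genes 44.4% were higher and 32.9% lower, with a median of 0.41, and the counts of the other lists below stand against these shares. The citrate synthase gene Cs was at 335 ± 20.3 scaled CPM in control oocytes and 188 ± 20.6 in control granulosa cells (SD, n = 4 each). The import receptor gene Tomm20 was at 46.1 ± 22.3 scaled CPM in control oocytes and 308 ± 12.5 in control granulosa cells. Of 11 regulators of mitochondrial biogenesis 6 were higher and 4 lower (median 1.51), with the transcription factor gene Nrf1 at a log2 change of 2.30 ± 0.27 and Gabpa at −4.11 ± 0.74. Of 12 genes of mitophagy and dynamics 5 were higher, such as the fission factor Mff (1.38 ± 0.12), and 7 lower, such as the mitophagy receptor Fundc1 (−2.31 ± 0.25). Of 14 genes of the mitochondrial stress response 4 were higher, such as the kinase Eif2ak1 (2.17 ± 0.16), and 6 lower, such as the protease subunit Clpp (−2.09 ± 0.19).

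Under blebbistatin in granulosa cells 0 genes of these 4 lists passed in edgeR, limma voom or DESeq2. Of all 15370 genes, edgeR and limma voom called 1 each, and DESeq2 called 213 higher and 164 lower. An unadjusted p under 0.05 was reached by 1 listed gene on the positive and 4 on the negative side, against 5.36% of all genes higher and 5.06% lower. Medians were −0.01 for mass, −0.09 for biogenesis, −0.05 for mitophagy and dynamics and 0.11 for the stress response, against −0.05 over all genes. The mitophagy kinase gene Pink1 had a log2 change of 0.36 ± 0.16 and the fission gene Fis1 one of −0.34 ± 0.11.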
